A study of Mus musculus with 35 samples.

Results

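Untreated mouse cardiac fibroblasts (CFs) were transfected with 1 of 2 siRNAs against the transcript of 4930523C07Rik, which encodes the microprotein IAMP, and the 3 IAMP-siR-2 (siR-2) libraries were here set directly against the 3 IAMP-siR-1 (siR-1) libraries. These 6 of the 35 libraries of the series were taken by the names of their table columns, not by any measured value. All 19669 of 55487 listed genes that passed edgeR's filter on low counts entered the contrast. The 3 libraries of CFs given a scrambled siRNA (Scrambled) gave the reference levels.

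The CFs were primary cells, enzymatically released from adult mouse hearts, selected by adherence to collagen and grown in high-glucose DMEM with 10% fetal bovine serum. Neither the strain nor the age in weeks is given in the labels of these libraries. The treatment labels of the 9 untreated libraries name an siRNA and no stimulus, although the protocol text they share with the stimulated ones describes 24 h of siRNA followed by 24 h of IL-17, so their time of harvest is not stated. The same 2 siRNAs were also applied to CFs given IL-17 and to CFs given TGF-β, in libraries of their own. The labels do not say whether the 3 libraries of a group came from separate animals or cultures, so p values measure the spread between these libraries, which may be technical. Both siRNAs target 1 transcript, the comparison holds 1 siRNA on each side, and siRNA identity therefore cannot be told apart from anything else that differs between the 2 transfections.

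An siRNA guides the RNA-induced silencing complex to transcripts that pair with it, along the whole guide at the intended target and through the seed at its 5′ end at others. A pair of siRNAs with different guides is commonly used against 1 target so that their effects can be compared. CFs make and remodel the collagen and fibronectin network of the heart, contract through smooth-muscle actin when activated, and release cytokines such as IL-6. The guide sequences of the siRNAs were not analysed here, and no pairing with transcripts was examined.

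Genes were tested with the quasi-likelihood method of edgeR, p values were adjusted after Benjamini and Hochberg, and a gene was called at an adjusted p of up to 0.05 with a log2 fold change of 1 or more in size. With siR-2, 441 genes were higher than with siR-1 (2.24% of those tested) and 867 were lower (4.41%), 1308 in all (6.65%), of which 1086 were protein-coding. At an adjusted p up to 0.05 alone (below, without a minimum fold), 4471 genes were higher (22.7%) and 4482 lower (22.8%), together 8953 (45.5%). The median log2 fold change over all genes tested was −0.02, and 90% of genes lay between −1.25 and 0.99. Falls thus outnumbered rises with the minimum fold and equalled them, to within 11 genes, without it. The siR-2 and siR-1 libraries did not overlap in 1259 of the called genes (96.3%), against 54.2% of all genes tested. In 61 of the higher and 94 of the lower genes, every library of the lower group was at or under the floor. The floor was 18 estimated counts, taken as about 3 read pairs. In 18 and 28 more, both groups were at or under it. Fitted folds of the 61 and 94 are no bound, and none is read from the 18 and 28. With at least 1 CPM (counts scaled by library total and TMM factor) in the higher group, 273 called genes were higher and 611 lower.

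**Figure D1:**
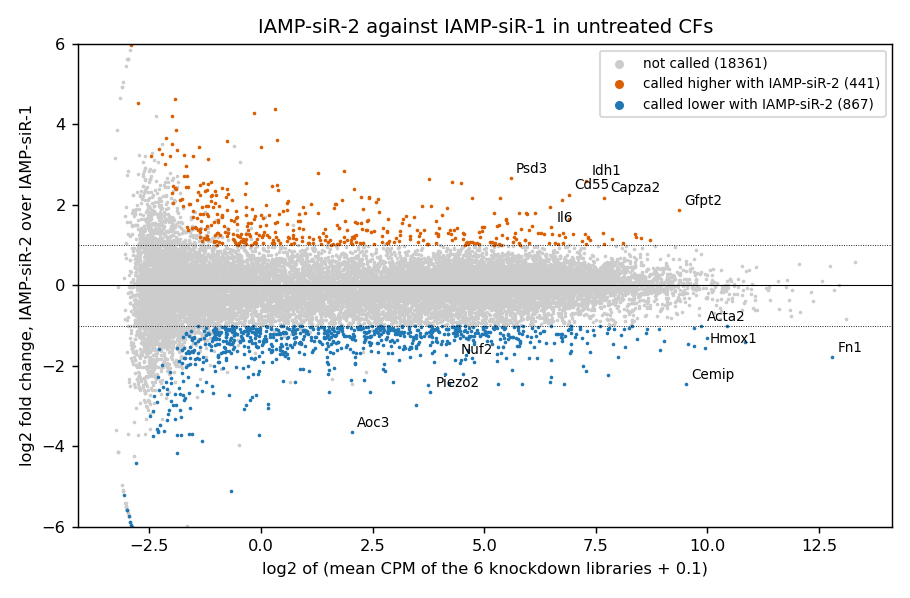
Log2 fold change of IAMP-siR-2 over IAMP-siR-1 (y axis) against the log2 of the mean CPM of the 6 knockdown libraries plus 0.1 (x axis), 1 point for each of 19669 genes in untreated CFs. Dotted lines mark a log2 fold change of 1 in each direction, 441 genes are called higher and 867 lower, and 79 genes of very low level lie beyond the y axis.

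Against the Scrambled level, the mean of the 3 Scrambled libraries lay between both siRNA means in 268 of the 441 higher genes, below both in 126 and above both in 47. In the 867 lower genes it lay between them in 460, above both in 372 and below both in 35. These are positions of levels, given without a test because the called genes were chosen on the siRNA levels themselves.

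The targeted gene 4930523C07Rik (ENSMUSG00000090394, chromosome 1, 160044382 to 160080208) was low with both siRNAs and lower with siR-2. Its CPM was 1.76, 1.83 and 1.88 in the siR-2 libraries, 2.51, 3.51 and 2.97 in the siR-1 libraries and 22.02, 22.7 and 25.8 in the Scrambled libraries. Every siR-2 library lay below every siR-1 library, and all 6 lay far below Scrambled. The log2 fold change of siR-2 over siR-1 was −0.72 (standard error 0.115, adjusted p = 6.12e-05 by edgeR quasi-likelihood, Benjamini-Hochberg), under the fold threshold. What was left of the transcript was 12.8% of the Scrambled mean for siR-1 and 7.74% for siR-2.

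Among called protein-coding genes with at least 5 CPM in the higher group, the 12 largest falls with siR-2 were those of Aoc3, Nrk, Sox12, Piezo2, Tmem260, Phc3, Cemip, Amot, Chp1, Tmem47, Cd109 and Eif4e3. Their log2 fold changes ran from −3.65 to −2.39, and their adjusted p values from 7.93e-18 to 7.03e-08 by edgeR quasi-likelihood, Benjamini-Hochberg. Aoc3 (vascular adhesion protein 1, an amine oxidase; ENSMUSG00000019326, chromosome 11, 101330605 to 101341938) was at 0.771, 0.354 and 0.640 CPM with siR-2, at 8.25, 6.70 and 7.30 with siR-1 and at 2.42, 2.21 and 2.48 in Scrambled. The 3 groups did not overlap, Scrambled lay in the middle, and the log2 fold change was −3.65 (standard error 0.212). Piezo2, a mechanically gated cation channel (ENSMUSG00000041482, chromosome 18, 63010213 to 63387183), had the same order, with 3.87, 3.25 and 4.17 CPM with siR-2, 24.3, 22.8 and 23.9 with siR-1 and 12.04, 10.8 and 11.5 in Scrambled (log2 fold change −2.65, standard error 0.0897). Cemip, which breaks down hyaluronan (ENSMUSG00000052353, chromosome 7, 83932857 to 84086502), was much more abundant, at 221, 238 and 218 CPM with siR-2, 1219.8, 1245 and 1233 with siR-1 and 784, 825 and 764 in Scrambled (log2 fold change −2.45, standard error 0.0380). It was both above Scrambled with siR-1 and below it with siR-2.

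A second kind of fall left siR-1 near the Scrambled level. Cd109, a membrane protein that binds TGF-β, was at 27.5, 28.9 and 27.9 CPM with siR-2, 149, 155 and 144 with siR-1 and 146, 154 and 143 in Scrambled, so that siR-1 and Scrambled overlapped and siR-2 stood alone. Its log2 fold change was −2.41 (standard error 0.0403). Chp1, a calcineurin-like partner of the sodium-proton exchanger, stood at 34.1 ± 0.509 CPM with siR-2 (SD, n = 3), 186 ± 2.80 with siR-1 and 161 ± 1.58 in Scrambled. Tmem47 stood at 5.71 ± 0.505, 31.1 ± 1.56 and 31.1 ± 0.818 CPM in the same order (SD, n = 3), Tmem260 at 4.001 ± 0.393, 22.3 ± 1.34 and 20.6 ± 0.694, and the kinase gene Nrk at 2.47 ± 0.395, 19.4 ± 1.77 and 20.3 ± 2.97. In these 5 genes siR-1 lay within 0.21 log2 units of Scrambled. Amot (angiomotin, which binds YAP), Eif4e3 (a cap-binding protein) and the transcription factor Sox12 were of the first kind, with siR-1 above Scrambled by 0.52, 0.70 and 0.93 on the log2 scale and siR-2 below it by 1.93, 1.69 and 1.73.

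Phc3, a subunit of Polycomb repressive complex 1, was at 11.8, 12.5 and 12.2 CPM with siR-2, 64.9, 64.97 and 70.5 with siR-1 and 63.4, 69.5 and 58.8 in Scrambled (log2 fold change −2.46, standard error 0.0610), but in CFs given IL-17 similar low and high levels appeared within 1 group. Under IL-17 its CPM was 13.7, 57.7 and 55.2 in the 3 siR-2 libraries, 15.9, 62.6 and 14.5 in the 3 siR-1 libraries and 14.3, 11.3 and 14.2 in Scrambled. Of 10878 genes with at least 5 CPM in the highest untreated group, 52 differed by over 3-fold between libraries of 1 group in any of the 3 CF tables, and Phc3 and Nemp1 were the 2 of these called here. Within the untreated groups neither differed by more than 1.31-fold between libraries, and the cause was not tested.

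The 12 largest rises were those of Ntng2, Psd3, Serpinb2, Idh1, Nr4a3, Alpl, Adgrd1, Cd55, Bdh1, Capza2, Serpinb1a and Egr3, with log2 fold changes from 2.17 to 2.85 and adjusted p values from 7.93e-18 to 1.13e-06 (edgeR quasi-likelihood, Benjamini-Hochberg). Idh1, the cytosolic NADP-dependent isocitrate dehydrogenase (ENSMUSG00000025950, chromosome 1, 65158616 to 65186500), was at 262, 268 and 267 CPM with siR-2, 44.5, 44.8 and 42.4 with siR-1 and 101, 101 and 101 in Scrambled. The libraries of each group lay close together and Scrambled stood between both siRNAs, with a log2 fold change of 2.60 (standard error 0.0325). Psd3, an exchange factor for the small GTPase ARF6 (ENSMUSG00000030465, chromosome 8, 67689082 to 68212027), was far below Scrambled with siR-1. Its CPM was 81.8, 87.5 and 80.5 with siR-2, 13.2, 11.7 and 14.3 with siR-1 and 62.3, 65.7 and 59.7 in Scrambled (log2 fold change 2.67, standard error 0.0657). Capza2, which encodes an α subunit of the actin capping protein, was likewise at 74.9 ± 1.72 CPM with siR-1 (SD, n = 3) against 232 ± 5.75 in Scrambled and 338 ± 1.964 with siR-2.

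Cd55, the decay-accelerating factor that protects cells from complement (ENSMUSG00000026399, chromosome 1, 130439027 to 130462744), was above Scrambled with siR-2 and close to it with siR-1. Its CPM was 209, 198 and 187 with siR-2, 41.6 ± 1.51 with siR-1 (SD, n = 3) and 42.8, 47.05 and 48.5 in Scrambled (log2 fold change 2.25, standard error 0.0505). Serpinb1a, an inhibitor of neutrophil proteases, the adhesion receptor Adgrd1 and the ketone-body enzyme gene Bdh1 had this pattern too, with siR-1 within 0.34 log2 units of Scrambled and siR-2 above it by 1.84, 2.21 and 2.28. Alpl, the tissue-nonspecific alkaline phosphatase, and Serpinb2, plasminogen activator inhibitor 2, were above Scrambled with both siRNAs. Alpl stood at 38.03 ± 2.28 CPM with siR-2 (SD, n = 3), 6.56 ± 0.495 with siR-1 and 3.002 ± 0.359 in Scrambled, and Serpinb2 at 23.3 ± 0.968, 3.72 ± 0.280 and 1.88 ± 0.464. The immediate-early genes Nr4a3 and Egr3 and the axon-guidance gene Ntng2 were lower than Scrambled with siR-1 (by 0.82, 1.17 and 0.96 on the log2 scale) and higher with siR-2 (by 1.76, 1.002 and 1.89).

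**Figure D2:**
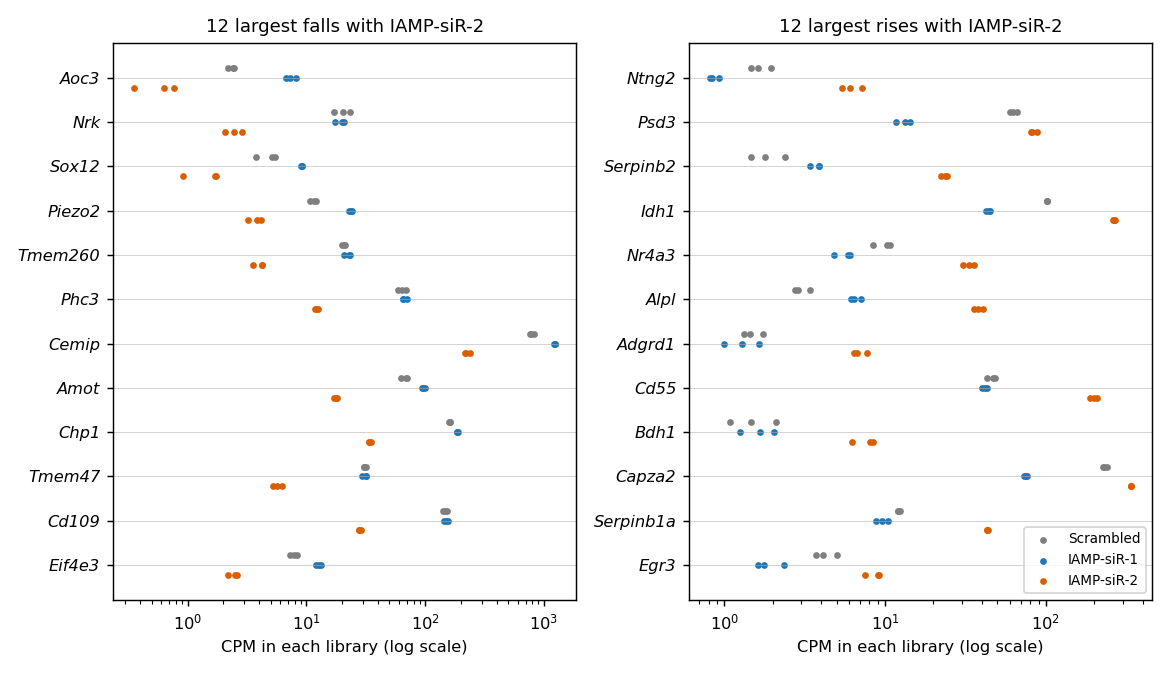
CPM of each library on a log scale (x axis) for the 12 protein-coding genes with the largest fall (left) and rise (right) with IAMP-siR-2 relative to IAMP-siR-1, 1 point per library and 3 per group. In every gene the 3 IAMP-siR-2 points lie on one side of the 3 IAMP-siR-1 points, whereas Scrambled lies near IAMP-siR-1 in some (Cd109, Cd55), near IAMP-siR-2 in Psd3, between them in others (Idh1, Piezo2) and below both in Alpl and Serpinb2.

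Of the 121 genes named by rule or added, 13 have over 10% of their exon bases within exons of another annotated gene. They are Tmem260, Tmem47, Eif4e3, Bdh1, Serpinb2 and Ntng2 above, and Cpt1b, Adamts8, Gbp7, Tagln, Lats2, Hsp90b1 and Ankrd37 below. Reads of overlapping genes can be shared between them, and without a stated strand setting those of opposite strands cannot be told apart. For Tagln the overlap was 67.9% with Gm48529 on the opposite strand, and for Cpt1b 81.4% with Gm44502 on the same strand.

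Among called protein-coding genes, the 10 with the largest difference of mean CPM were Fn1, Itgb1, Cemip, Hmox1, Emp1, Col12a1, Fat1, Gfpt2, Itpripl2 and Acta2, and of these 10 Gfpt2 was higher with siR-2 and the others lower. Some abundant genes under the fold threshold differed by more CPM, among them Col1a1 and Col1a2 (below) and Vim, which encodes vimentin and was at 5026 ± 88.2 CPM with siR-2, 3474 ± 13.05 with siR-1 and 3779.8 ± 133 in Scrambled (SD, n = 3). Fn1, fibronectin (ENSMUSG00000026193, chromosome 1, 71585520 to 71653200), was at 3085, 3310.1 and 3190.1 CPM with siR-2, 11013, 10819 and 11256 with siR-1 and 8064, 8169 and 7491 in Scrambled. The 3 groups did not overlap, and the log2 fold change was −1.79 (standard error 0.0361, adjusted p = 1.21e-15 by edgeR quasi-likelihood, Benjamini-Hochberg). Itgb1, the β1 integrin subunit through which cells bind fibronectin and collagens, had the same order, with means of 1004 ± 14.5, 2660.4 ± 20.2 and 1758 ± 29.2 CPM (SD, n = 3). Col12a1 was at 589.98 ± 30.1 CPM with siR-2, 1451 ± 49.3 with siR-1 and 543 ± 66.5 in Scrambled, so the siR-1 level stood out. Hmox1, heme oxygenase 1, was at 487, 488 and 515 CPM with siR-2, 1434, 1493 and 1459.96 with siR-1 and 242, 235 and 239 in Scrambled, above the control with both siRNAs and highest with siR-1. Itpripl2 was at 405 ± 11.5 CPM with siR-2, 1107 ± 27.8 with siR-1 and 1117 ± 74.4 in Scrambled. Gfpt2, an enzyme that starts the hexosamine pathway, was at 1022, 1071 and 995 CPM with siR-2, 285, 286 and 279 with siR-1 and 199, 194 and 204 in Scrambled (log2 fold change 1.86, standard error 0.0327). The remaining genes were the atypical cadherin gene Fat1 (log2 fold change −1.52), the membrane protein gene Emp1 (−1.01) and Acta2 (−1.01).

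The groups below are described by how many members were called, beside 2.24% higher and 4.41% lower over all genes. For most of them the median is given too, beside −0.02. A rise or fall means siR-2 relative to siR-1, whichever of them left the Scrambled level. No test of a group as a whole was run. Mitosis and spindle genes moved most evenly. Of 33 tested, 11 were called lower and 0 higher, all 33 were lower at an adjusted p up to 0.05 (edgeR quasi-likelihood, Benjamini-Hochberg), and the median log2 fold change was −0.94. Nuf2, part of the kinetochore complex that holds microtubules, was at 9.79, 8.50 and 7.96 CPM with siR-2, 32.5, 30.9 and 31.3 with siR-1 and 48.8, 50.5 and 53.1 in Scrambled (log2 fold change −1.85, standard error 0.0680). Racgap1, which organizes the central spindle for cytokinesis, was at 22.7, 17.2 and 21.3 CPM with siR-2, 58.02, 57.05 and 61.6 with siR-1 and 116, 113 and 117 in Scrambled. Bub1b, a spindle checkpoint kinase, was at 16.3, 13.6 and 16.2 CPM with siR-2, 37.2, 34.5 and 39.1 with siR-1 and 57.003, 56.1 and 53.8 in Scrambled. In all 3 genes the groups did not overlap and both siRNAs lay below Scrambled, siR-2 further than siR-1. Against Scrambled, the list median was −1.63 for siR-2 and −0.74 for siR-1. Among 35 DNA replication and S-phase genes, 4 were called lower and 0 higher (median −0.47), and 27 were lower without a minimum fold. Prim1, a primase subunit, had a log2 fold change of −1.15, the licensing factor gene Cdt1 of −1.06 and Uhrf1, which maintains DNA methylation, of −1.04. The 4 calls became 2 without siR-1 replicate 3 and without siR-2 replicate 2. CDK inhibitors and D-type cyclins gave 0 calls among 15 genes tested, with 5 genes raised and 9 lowered at an adjusted p up to 0.05 (edgeR quasi-likelihood, Benjamini-Hochberg). In bulk RNA, fewer cells in a state and less RNA per cell cannot be told apart.

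The promoters of these genes are shown because the members moved together. RefSeq windows (GRCm38.p6) from 250 bases before to 50 after a transcript start were at hand for 27 of the 33 genes. These 27 genes had 29 windows. The hexamer TTTGAA, the core of the cell cycle homology region, was found on either strand in 22 of the 29 (75.9%), and in 17.9% of all 32851 windows. By gene, 20 of the 27 had it in at least 1 window. The pentamer CCAAT was found on either strand in 22 of the 29 windows (75.9%), which belong to 20 of the 27 genes, and in 37.4% of all windows. The windows of the 3 genes above are printed 5′ to 3′ in the direction of transcription, with both motifs, on either strand, in capitals. A match is a description of the letters and not a binding site, and the window of Nuf2 holds neither motif.
Nuf2, chr1:169531415-169531714, minus strand: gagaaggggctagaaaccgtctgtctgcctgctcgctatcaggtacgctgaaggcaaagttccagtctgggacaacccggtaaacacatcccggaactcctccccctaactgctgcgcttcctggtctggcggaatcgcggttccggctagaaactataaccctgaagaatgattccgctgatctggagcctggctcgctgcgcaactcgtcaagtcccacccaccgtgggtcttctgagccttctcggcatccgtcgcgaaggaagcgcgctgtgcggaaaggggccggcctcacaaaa
Racgap1, chr15:99651607-99651906, minus strand: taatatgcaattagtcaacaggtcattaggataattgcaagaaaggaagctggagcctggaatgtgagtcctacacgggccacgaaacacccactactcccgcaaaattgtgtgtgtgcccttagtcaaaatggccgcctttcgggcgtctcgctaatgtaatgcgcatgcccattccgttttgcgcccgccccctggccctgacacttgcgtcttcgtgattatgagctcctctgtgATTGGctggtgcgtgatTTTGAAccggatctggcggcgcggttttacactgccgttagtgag
Bub1b, chr2:118597961-118598260, plus strand: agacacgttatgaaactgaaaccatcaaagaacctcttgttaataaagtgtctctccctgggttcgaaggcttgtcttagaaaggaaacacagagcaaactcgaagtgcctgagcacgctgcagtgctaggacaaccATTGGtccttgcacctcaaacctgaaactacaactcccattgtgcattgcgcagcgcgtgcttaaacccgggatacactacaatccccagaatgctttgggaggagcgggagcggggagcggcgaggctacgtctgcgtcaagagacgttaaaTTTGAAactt

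Falls also prevailed among smooth-muscle contractile genes. Of 24 tested, 9 were called lower and 0 higher, 22 were lower without a minimum fold, and the median was −0.58. Relative to Scrambled the median was −0.79 for siR-2 and 0.07 for siR-1, a pattern unlike that of mitosis, in which both medians were below 0. Acta2, smooth-muscle α-actin and the usual marker of myofibroblasts (ENSMUSG00000035783, chromosome 19, 34241090 to 34255590), was at 632, 593 and 615 CPM with siR-2, 1279, 1257 and 1182 with siR-1 and 1055, 1026 and 1064 in Scrambled. Its log2 fold change of −1.01 (standard error 0.0342) was just past the fold threshold and fell under it, at −0.99 each time, without siR-1 replicate 1 and without siR-2 replicate 2. Tagln, transgelin, was at 192, 182 and 206 CPM with siR-2, 496, 493 and 479 with siR-1 and 429.9, 383 and 432 in Scrambled (log2 fold change −1.34, standard error 0.0481). Cnn1, calponin 1, and Lmod1, leiomodin 1, were near the lower end of detection at 0.631 ± 0.173 and 1.43 ± 0.393 CPM with siR-2 (SD, n = 3), with log2 fold changes of −1.81 and −1.18, the latter −0.98 without siR-2 replicate 3. Markers of other cells that can carry such transcripts are given for comparison. Pericyte and smooth muscle markers had 0 calls and 4 genes lower of 8 without a minimum fold. The pericyte markers summed to 42.5 to 51.7 CPM with siR-2, 47.9 to 53.2 with siR-1 and 55.7 to 64.3 in Scrambled. Cspg4 made up most of this sum, with a mean of 43.7 of 45.7 CPM with siR-2. Cardiomyocyte markers summed to 26.7 to 31.9 CPM with siR-2, 41.2 to 46.4 with siR-1 and 89.4 to 98.02 in Scrambled, nearly all of it Tnnt2, while Myl2 was listed at 0 in all 6 siRNA libraries and Myh6 in the 3 siR-2 libraries. The part of such cells in the falls was not tested. Of 23 target genes of YAP and SRF, by contrast, 1 was called lower (Lats2, a kinase that restrains YAP, log2 fold change −1.09) and 0 higher, with a median of −0.22.

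**Figure D3:**
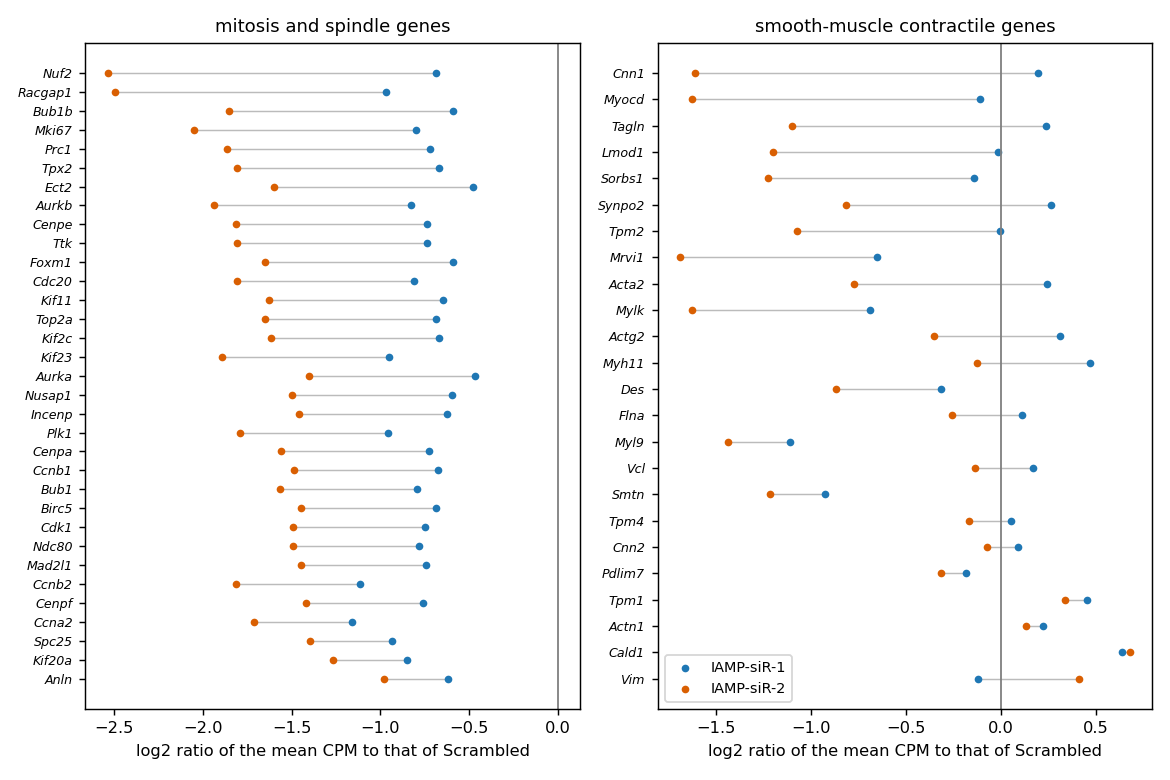
Log2 ratio of the mean CPM of each siRNA group to the Scrambled mean (x axis, n = 3 libraries per group) for 33 mitosis and spindle genes (left) and 24 contractile genes (right), ordered by the fold change between siRNAs. Both points lie left of 0 in every mitosis gene, whereas in most contractile genes IAMP-siR-1 lies near 0 and IAMP-siR-2 to its left.

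The matrix lists were lower on the whole with siR-2 than with siR-1. Fibrillar collagens and their processing enzymes had 4 genes called lower and 1 higher of 29 (median −0.46), basement membrane and network collagens 5 and 1 of 32 (−0.44), and matricellular proteins and elastic fibres 3 and 0 of 33 (−0.37). Without a minimum fold, 22, 21 and 22 genes of these lists were lower and 3, 2 and 4 higher. Relative to Scrambled, their medians were −0.18, −0.33 and −0.18 for siR-2 and 0.23, 0.09 and 0.10 for siR-1. The abundant fibrillar collagens Col1a1 and Col1a2 were at 3301 ± 75.5 and 2775 ± 66.5 CPM with siR-2 (SD, n = 3), 5257 ± 43.9 and 4732 ± 85.2 with siR-1 and 3747 ± 55.2 and 3486 ± 76.97 in Scrambled, differences under the fold threshold. Among the called, Adamts3, which processes procollagen, had a log2 fold change of −1.70 and the cartilage collagen gene Col2a1 of −1.49, at 0.767 ± 0.119 CPM with siR-2 and 2.15 ± 0.254 with siR-1 (SD, n = 3). Col6a3, a chain of the microfibrillar collagen VI, was at 12.1, 12.2 and 12.4 CPM with siR-2, 37.7, 32.6 and 40.9 with siR-1 and 86.6, 89.8 and 86.3 in Scrambled, so both siRNAs were below control and siR-2 furthest (log2 fold change −1.600, standard error 0.0654). Mfap4, a microfibril-associated protein gene, and Ltbp2, which belongs to the latent TGF-β binding proteins, were lower by 1.69 and 1.20 on the log2 scale. Mfap4 had means of 6.70 CPM with siR-2, 21.7 with siR-1 and 7.41 in Scrambled, and Ltbp2 of 10.3, 23.6 and 15.7. Against this direction, Plod2, which hydroxylates lysines of collagen telopeptides, was at 460.2, 476 and 484 CPM with siR-2, 211, 202 and 208 with siR-1 and 439.6, 446 and 439 in Scrambled, so it was siR-1 that was low.

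Of 11 ADAMTS proteases tested, 5 were called lower and 1 higher, with a median of −0.87. Relative to Scrambled the median was 0.13 for siR-2 and 0.72 for siR-1. Adamts12 was at 21.4, 19.3 and 18.99 CPM with siR-2, 68.9, 68.9 and 70.8 with siR-1 and 12.6, 12.1 and 12.4 in Scrambled, above control with both and most with siR-1 (log2 fold change −1.81, standard error 0.0528). The aggrecanase gene Adamts4 stood at 6.30 ± 0.320 CPM with siR-2 (SD, n = 3), 16.8 ± 1.12 with siR-1 and 10.2 ± 0.934 in Scrambled, and Adamts8 at 0.970 ± 0.285, 4.46 ± 0.174 and 3.18 ± 0.333. Matrix metalloproteinases and their inhibitors had 1 gene called higher and 0 lower of 21, Mmp15, which lost its call without siR-1 replicate 1 (log2 fold change 1.13, and 0.94 there). Its means were 1.52 CPM with siR-2, 0.695 with siR-1 and 2.01 in Scrambled, so both siRNAs were below control. Mmp3, stromelysin 1, was high with both siRNAs and did not differ between them past the threshold, with 1513, 1435 and 1668 CPM with siR-2, 1382, 1317 and 1422 with siR-1 and 376, 377 and 433 in Scrambled. The log2 fold change of Mmp3 was 0.16 (unadjusted 95% interval of the ratio 1.02 to 1.23, adjusted p = 0.0807 by edgeR quasi-likelihood, Benjamini-Hochberg).

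Hyaluronan and proteoglycan genes split both ways, with 4 called higher and 4 lower of 23 and a median of −0.43, which moved to −0.13 with at least 10 counts in every library. Beside Cemip, Has2, the main hyaluronan synthase of fibroblasts, was at 4.84, 3.84 and 4.82 CPM with siR-2, 13.7, 13.98 and 13.03 with siR-1 and 5.99, 4.998 and 4.53 in Scrambled (log2 fold change −1.59, standard error 0.115). Tnfaip6, which transfers heavy chains onto hyaluronan, went the other way, at 27.5, 28.9 and 27.8 CPM with siR-2, 7.10, 7.58 and 7.45 with siR-1 and 12.8, 13.1 and 13.7 in Scrambled (log2 fold change 1.93, standard error 0.0632). Integrins also split, 3 called higher and 3 lower of 19 (median −0.19), with 4 higher and 10 lower without a minimum fold. Itgb8, which binds and activates latent TGF-β, was at 66.01, 67.7 and 65.6 CPM with siR-2, 14.1, 15.5 and 14.6 with siR-1 and 17.7, 20.5 and 17.8 in Scrambled (log2 fold change 2.17, standard error 0.0619). Itgb6, also a receptor of latent TGF-β, and Itga2, a collagen receptor, rose by 1.81 and 1.55 on the log2 scale, from siR-1 levels close to Scrambled. The 3 that fell included Itgb1, described above.

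**Figure D4:**
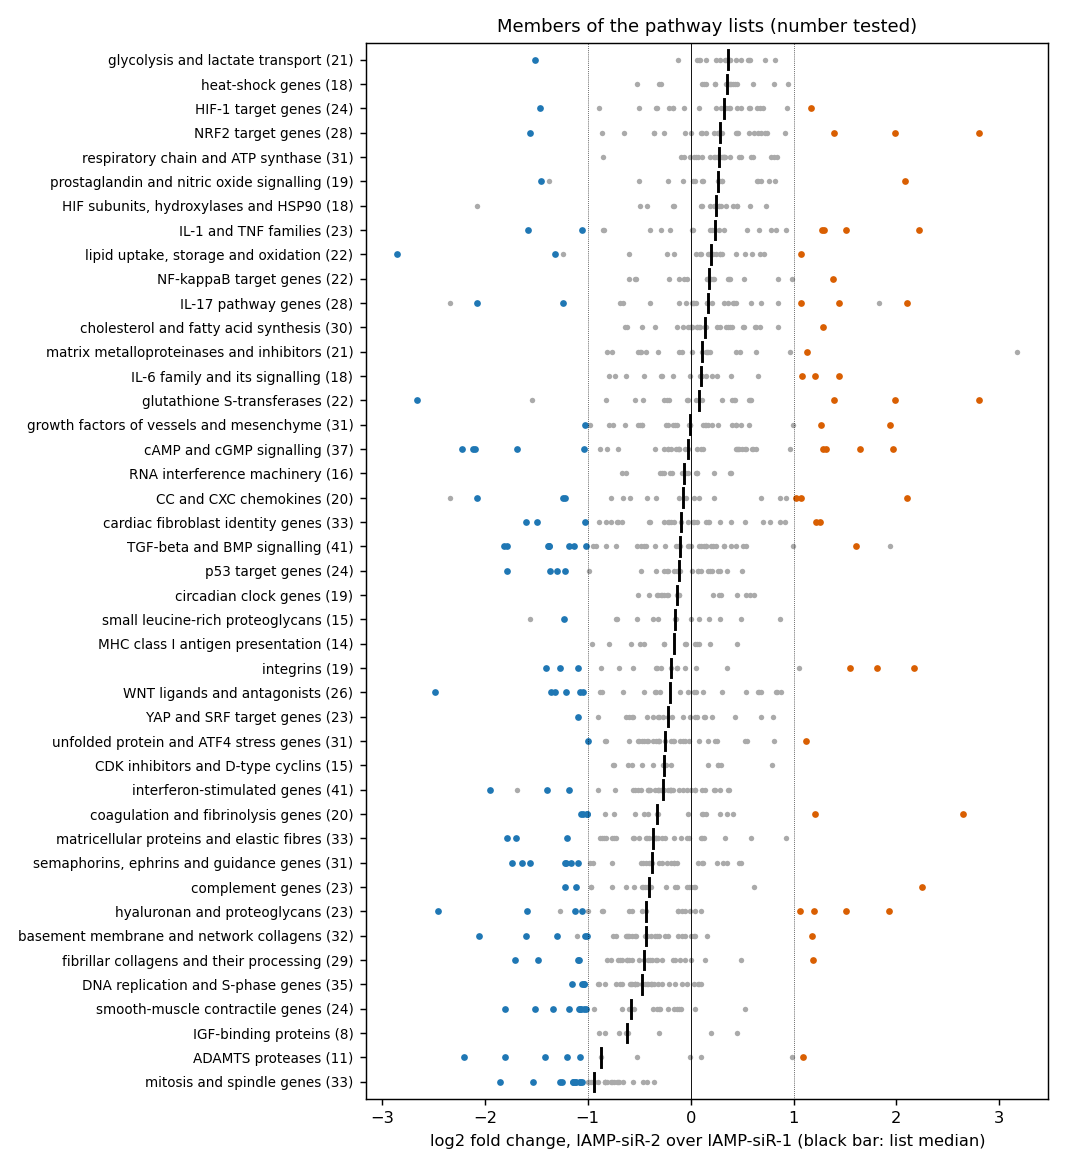
Log2 fold change of IAMP-siR-2 over IAMP-siR-1 (x axis) of every tested member of 43 pathway lists, ordered by median (black bar). Orange members are called higher, blue members called lower and grey ones not called, and the dotted lines mark 1 in each direction. Mitosis and spindle genes have the lowest median, −0.94, and glycolysis the highest, 0.36.

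Cytokine genes moved in both directions. Il6 (ENSMUSG00000025746, chromosome 5, 30013114 to 30019981) was at 130.1, 128 and 139 CPM with siR-2, 49.5, 48.4 and 48.6 with siR-1 and 20.2, 19.3 and 18.7 in Scrambled. The 3 groups did not overlap, both siRNAs were above control, and siR-2 exceeded siR-1 by 1.44 on the log2 scale (standard error 0.0415, adjusted p = 8.64e-14 by edgeR quasi-likelihood, Benjamini-Hochberg). The 3 called genes of 18 in the IL-6 list were Il6, its relative Il11 and Socs3, the feedback inhibitor of the IL-6 receptor. All 3 were higher, Il11 by 1.21 and Socs3 by 1.08 on the log2 scale. Il11 had means of 2.51 CPM with siR-2, 1.08 with siR-1 and 1.80 in Scrambled. Without a minimum fold, 8 genes of this list were higher and 6 lower (median 0.097). Of 28 IL-17 pathway genes, 3 were called higher and 2 lower (median 0.16), and the higher count fell to 1 without siR-2 replicate 3. Ccl20, a chemokine for CCR6-bearing cells, was at 0.626, 0.604 and 0.856 CPM with siR-2, 2.82, 3.30 and 2.65 with siR-1 and 0.653, 0.442 and 0.185 in Scrambled, and so stood out with siR-1. Cxcl12, the ligand of CXCR4, stood at 158 ± 12.5 CPM with siR-2 (SD, n = 3), 374 ± 6.54 with siR-1 and 248 ± 7.19 in Scrambled. Ccl9 fell with siR-2 as well (log2 fold change −1.22). CC and CXC chemokines together had 3 called higher and 3 lower of 20, and the higher count was 0 without siR-2 replicate 3 and 1 without siR-1 replicate 2. S100a8, an alarmin, was listed at 0 in every Scrambled library and at 0.523, 0.337 and 0.346 CPM with siR-2 and 0.141, 0.196 and 0 with siR-1, with no call between the siRNAs (adjusted p = 0.133 by edgeR quasi-likelihood, Benjamini-Hochberg).

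Of 22 NF-κB target genes, 13 were higher and 3 lower without a minimum fold (median 0.18). With the minimum fold, 1 was called higher and 0 lower. It was Bcl3, an atypical IκB protein, at 16.5, 18.8 and 19.2 CPM with siR-2, 7.01, 6.80 and 7.06 with siR-1 and 4.48, 3.58 and 3.22 in Scrambled (log2 fold change 1.38, standard error 0.105). IL-1 and TNF families had 4 called higher and 2 lower of 23 (median 0.23), with 10 higher and 3 lower without a minimum fold. Tnfsf15, a TNF-family ligand, was at 107, 106 and 99.7 CPM with siR-2, 42.2, 43.6 and 41.4 with siR-1 and 25.7, 28.1 and 24.4 in Scrambled, and the alarmin gene Il33 rose by 1.51 on the log2 scale. Il1rap, the shared coreceptor of IL-1 and IL-33, was at 141, 145 and 147 CPM with siR-2, 306, 293 and 301 with siR-1 and 136, 132 and 129.5 in Scrambled, so siR-1 stood above a control level that siR-2 nearly kept (log2 fold change −1.06, standard error 0.0311). Among 41 interferon-stimulated genes, 3 guanylate-binding protein genes were called lower and 0 genes higher, with a median of −0.27 that became 0.02 without siR-1 replicate 3. There, and without each of siR-2 replicates 1, 2 and 3, 1 call was left. These 3 genes belong to 1 gene family, and their libraries varied widely, for example 10.9, 7.20 and 13.5 CPM of Gbp7 in the siR-1 libraries and 32.1, 25.3 and 57.1 of Gbp2. Gbp5 had an adjusted p of 0.0455 (edgeR quasi-likelihood, Benjamini-Hochberg). RNA interference machinery and MHC class I genes gave 0 calls among 16 and 14 tested, with 3 and 2 higher and 7 and 5 lower without a minimum fold (edgeR quasi-likelihood, Benjamini-Hochberg).

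Ligands and antagonists of developmental pathways fell more often than they rose. In TGF-β and BMP signalling 8 genes were called lower and 1 higher of 41, although the median was −0.103 and 13 genes were higher and 18 lower without a minimum fold. Inhbb, an activin subunit, was at 30.04, 28.8 and 38.03 CPM with siR-2, 115, 110.03 and 115 with siR-1 and 38.5, 38.4 and 38.9 in Scrambled (log2 fold change −1.81, standard error 0.0858). The stress-induced ligand gene Gdf15, also on the p53 list, stood at 4.47 ± 0.0839, 15.4 ± 0.924 and 7.11 ± 1.07 CPM (siR-2, siR-1 and Scrambled, SD, n = 3), and the BMP antagonist gene Nog had a log2 fold change of −1.39. Of 26 WNT ligands and antagonists, 6 were called lower and 0 higher (median −0.20). Sfrp1, a secreted WNT antagonist, was at 249.9, 248 and 278 CPM with siR-2, 575, 512 and 550.3 with siR-1 and 295, 278 and 302 in Scrambled (log2 fold change −1.08, standard error 0.0508), and Dkk2 and Wnt2b had −1.32 and −1.22, of which Wnt2b lost its call without siR-2 replicate 1. Dkk2 had means of 2.35 CPM with siR-2, 5.86 with siR-1 and 1.59 in Scrambled, so both siRNAs were above control. Semaphorins, ephrins and guidance genes had 7 called lower and 0 higher of 31 (median −0.38). Nrp2, a semaphorin and VEGF coreceptor, was at 79.8, 81.3 and 80.2 CPM with siR-2, 242, 247 and 265 with siR-1 and 176, 182 and 157 in Scrambled, and the ephrin receptor genes Ephb2 and Ephb3 had log2 fold changes of −1.74 and −1.56.

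Growth factors of vessels and mesenchyme gave 2 higher and 1 lower of 31. Ereg and Areg, ligands of the EGF receptor, rose by 1.27 and 1.94 on the log2 scale. Ereg went from 195 ± 3.98 to 469.6 ± 16.5 CPM (SD, n = 3) with Scrambled at 245 ± 8.97. Areg was near the lower end of detection, at 0.229, 0.294 and 0.329 CPM with siR-1. It was at 1.45, 1.06 and 0.761 CPM with siR-2 and 0.289, 0.192 and 0.330 in Scrambled. Igf1 was at 33.3, 32.1 and 34.7 CPM with siR-2, 69.98, 67.2 and 67.2 with siR-1 and 81.5, 77.1 and 74.3 in Scrambled (log2 fold change −1.03, standard error 0.0446). IGF-binding proteins gave 0 calls among 8, though 6 were lower and 1 higher without a minimum fold (median −0.61). In cAMP and cGMP signalling 4 genes were called higher and 5 lower of 37, and 3 of the falls had log2 fold changes past −2. Prkar2b, a regulatory subunit of protein kinase A, was at 77.6, 77.4 and 76.4 CPM with siR-2, 358, 366 and 357 with siR-1 and 169, 169 and 160.1 in Scrambled (log2 fold change −2.22, standard error 0.0314). Npr3, the clearance receptor of natriuretic peptides, was at 18.6, 17.95 and 19.2 CPM with siR-2, 82.02, 80.2 and 76.5 with siR-1 and 24.1, 25.01 and 23.9995 in Scrambled. The adenylyl cyclase gene Adcy1 had a log2 fold change of −2.12, with means of 2.51 CPM with siR-2, 10.9 with siR-1 and 3.685 in Scrambled. In the list of genes that mark cardiac fibroblasts, 2 were called higher and 3 lower of 33. Pdgfrb, a PDGF receptor, was at 240.4, 243 and 249 CPM with siR-2, 726, 732 and 765 with siR-1 and 406, 405 and 413 in Scrambled (log2 fold change −1.600, standard error 0.0297), Meox1, a transcription factor of activated fibroblasts, fell by 1.49 on the log2 scale, and Ly6a (Sca-1) rose by 1.26.

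In the glycolysis, respiratory chain and heat-shock lists, genes higher with siR-2 outnumbered lower ones without a minimum fold. Of 21 glycolysis and lactate transport genes 17 were higher and 1 lower at an adjusted p up to 0.05 (edgeR quasi-likelihood, Benjamini-Hochberg) (median 0.36), but 0 were called higher and 1, the enolase gene Eno2, was called lower at −1.51. Respiratory chain and ATP synthase genes had 22 higher and 1 lower of 31 (median 0.28), heat-shock genes 15 and 3 of 18 (0.36), and neither list had a called gene. Hif1a was at 267, 272 and 279 CPM with siR-2, 256, 253 and 255 with siR-1 and 199.6, 203 and 194 in Scrambled, a log2 difference of 0.099 between the siRNAs (adjusted p = 0.0101 by edgeR quasi-likelihood, Benjamini-Hochberg). The cytosolic HSP90 genes Hsp90aa1 and Hsp90ab1 were higher by 0.28 and 0.35 with siR-2, while the endoplasmic Hsp90b1 and the mitochondrial Trap1 were lower, at −0.42 and −0.16. The list of HIF subunits, hydroxylases and HSP90 had 0 calls among 18, with 13 higher and 4 lower without a minimum fold (median 0.25). Of 24 HIF-1 target genes 14 were higher and 6 lower without a minimum fold (median 0.32). There 1 was called in each direction, Ankrd37 at 1.17 and Ero1l, an oxidase for protein folding, at −1.47.

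NRF2 target genes had 3 called higher and 1 lower of 28 (median 0.29), and 20 genes higher, 6 genes lower, without a minimum fold. The 3 were glutathione S-transferases. Gsta4, which clears lipid aldehydes, was at 20.4, 19.2 and 18.1 CPM with siR-2, 4.77, 5.17 and 4.64 with siR-1 and 3.64, 3.85 and 3.35 in Scrambled (log2 fold change 1.98, standard error 0.0873), and Gsta2, whose reads may be divided with the near-identical Gsta1, rose by 2.80 on the log2 scale. The one that fell was Hmox1, described above. Another transferase gene, Gstt1, was at 0.874, 0.423 and 0.959 CPM with siR-2, 5.07, 4.93 and 4.28 with siR-1 and 9.47, 8.13 and 8.28 in Scrambled (log2 fold change −2.66, standard error 0.213). Cholesterol and fatty acid synthesis had 18 genes higher and 4 lower of 30 without a minimum fold and 1 call, Mvd of the mevalonate pathway, at 25.6, 27.99 and 27.5 CPM with siR-2, 11.2, 11.1 and 10.9 with siR-1 and 10.4, 11.7 and 10.9 in Scrambled. In lipid uptake, storage and oxidation 1 gene was called higher and 2 lower of 22. They were the adipogenic factor gene Cebpa (1.07), the muscle-type carnitine palmitoyltransferase gene Cpt1b (−2.85) and the nuclear receptor gene Ppara (−1.32). Cpt1b was near the lower end of detection with siR-2, at 0.120, 0.207 and 0.216 CPM. It was at 1.38, 1.13 and 1.43 CPM with siR-1 and 0.554, 0.325 and 1.32 in Scrambled. Under TGF-β its siR-2 libraries ranged from 0.010 to 1.25 CPM. Unfolded protein and ATF4 stress genes had 7 higher and 18 lower of 31 without a minimum fold (median −0.25) and 1 call in each direction, the chaperone gene Dnajb9 (1.12) and the glutathione-degrading Chac1 (barely past the fold threshold). Of 24 p53 target genes 4 were called lower and 0 higher (median −0.12), among them Sesn1, a sestrin (−1.37), and the receptor gene Eda2r, whose siR-2 libraries spread widely at 16.2, 35.3 and 34.7 CPM against 67.4, 72.7 and 71.5 with siR-1.

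Coagulation and fibrinolysis genes had 2 called higher and 4 lower of 20. Thbd, thrombomodulin, was at 226, 226 and 220.5 CPM with siR-2, 99.3, 95.2 and 97.6 with siR-1 and 129, 126 and 124 in Scrambled (log2 fold change 1.20, standard error 0.0307), and the protease inhibitor gene Tfpi2 fell by 1.06 on the log2 scale. The 4 falls became 2 in DESeq2 and without siR-2 replicate 1. Complement genes gave 1 higher, Cd55, and 2 lower of 23, including the serine protease gene C1ra (−1.23). Without a minimum fold, 1 complement gene was higher and 11 were lower (median −0.41). In prostaglandin and nitric oxide signalling 1 gene was called in each direction of 19. Without a minimum fold, 8 were higher and 2 lower (median 0.27). Hpgd, which degrades prostaglandins, was at 9.27, 10.1 and 9.01 CPM with siR-2, 2.07, 2.51 and 2.13 with siR-1 and 1.58, 1.44 and 1.34 in Scrambled. Small leucine-rich proteoglycans gave 1 call, Podn (−1.23), among 15. Circadian clock genes gave 0 calls among 19, with 6 genes higher, 5 genes lower, without a minimum fold.

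Against Scrambled, 8 genes passed the threshold in opposite directions with the 2 siRNAs and were called in the direct contrast, 3 of them higher with siR-2 and 5 lower. Idh1, Egr3, Prkar2b, Piezo2 and Aoc3 are described above. Flvcr2, a membrane transporter, stood at 0.514 ± 0.0712 CPM with siR-2 (SD, n = 3), 2.70 ± 0.531 with siR-1 and 1.06 ± 0.322 in Scrambled, and the proton-gated channel gene Asic3 at 0.305 ± 0.144, 1.41 ± 0.256 and 0.657 ± 0.255. The eighth, the cation channel gene Cnga3, was listed at 0 in the siR-1 libraries, at 0.548, 0.570 and 0.579 CPM with siR-2 and at 0.223, 0.125 and 0.105 in Scrambled. For Idh1 the log2 fold changes against Scrambled were −1.21 for siR-1 and 1.39 for siR-2, for Prkar2b 1.12 and −1.11, and for Egr3 −1.17 and 1.002. These comparisons share the Scrambled libraries.

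CFs given IL-17, in which the same contrast was measured in libraries that played no part in the untreated fit, gave similar counts. There 452 genes were higher with siR-2 (2.27% of 19906 tested) and 832 lower (4.18%), together 6.45%, by edgeR quasi-likelihood, Benjamini-Hochberg at the same thresholds. Of the 1308 genes called in untreated CFs, 1274 were tested under IL-17, 1226 of them (96.2%) had the same sign, and 776 were called in the same direction and 0 in the opposite one. These 776 genes are 59.3% of the untreated calls and 60.4% of the IL-17 calls. Of the 17841 genes not called in untreated CFs and tested in both, 81.3% had the same sign. Over 13295 genes with at least 1 CPM, Pearson's r between both sets of log2 fold changes was 0.89, given as a description, since genes are not independent replicates. The median log2 fold change under IL-17 was 1.22 for the genes called higher in untreated CFs (1.40 there) and −1.14 for those called lower (−1.31 there), and the untreated values chose these genes.

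Under TGF-β fewer genes were called. There 49 genes were higher with siR-2 (0.246% of 19891 tested) and 181 lower (0.91%), together 1.16%, by edgeR quasi-likelihood, Benjamini-Hochberg at the same thresholds. Of 1245 untreated calls tested there 998 (80.2%) had the same sign, against 63.6% of 17359 genes not called, and 54 were called in the same direction, 4.13% of the untreated calls and 23.5% of the TGF-β calls. The 2 called in the opposite direction were A730049H05Rik and Soat2, both at under 3 CPM in untreated CFs. Pearson's r over 13288 genes was 0.45. The genes called higher in untreated CFs had a median log2 fold change of 0.14 under TGF-β, and those called lower of −0.43. More of the targeted transcript was left under TGF-β. Its mean was 3.31 CPM with siR-2, 4.40 with siR-1 and 20.7 in Scrambled, against 1.82, 2.998 and 23.5 in untreated CFs. Whether this bears on the smaller number of calls was not tested.

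**Figure D5:**
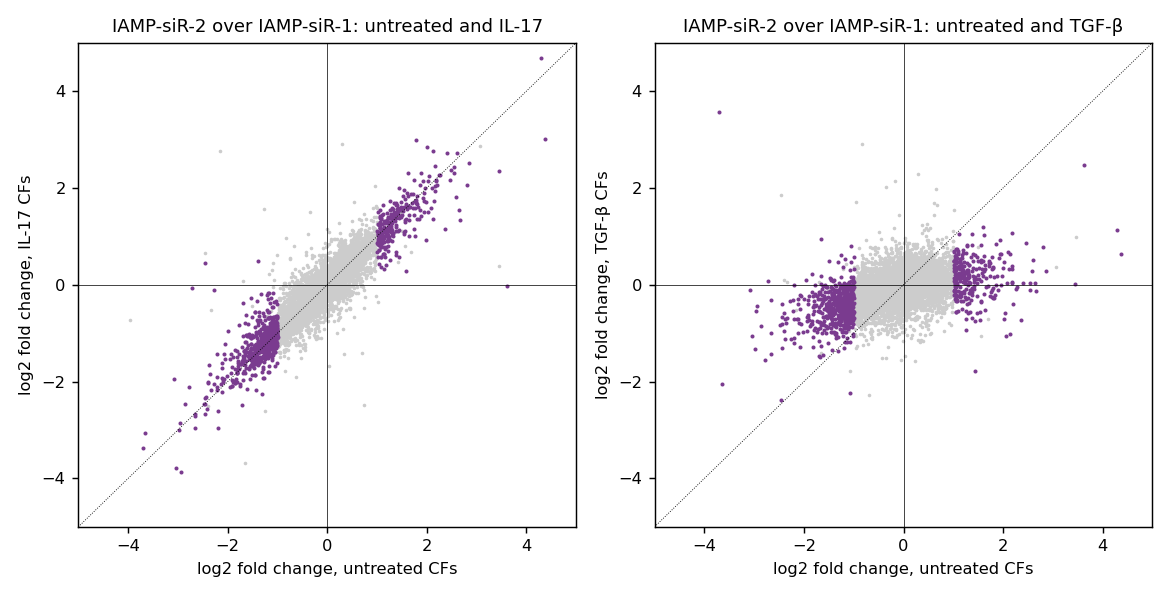
Log2 fold change of IAMP-siR-2 over IAMP-siR-1 in untreated CFs (x axis) against that in CFs given IL-17 (left) or TGF-β (right) for genes with at least 1 CPM in the higher untreated group. Purple points are genes called in untreated CFs, the dotted line marks equal change, and 4 points lie beyond the axes. The purple points follow the line under IL-17 (r = 0.89 over all points) and lie nearer to 0 under TGF-β (r = 0.45).

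Whether the siRNAs differed by another amount in untreated than in stimulated CFs was tested gene by gene. Each stimulus has a set of libraries of its own, so it cannot be told apart from anything else that differs between these sets. The TGF-β libraries held 104139670 to 108379622 estimated counts each, against 114763924 to 119232309 in the untreated ones. Against IL-17, 17 of 21219 genes (0.0801%) had a difference of at least 1 on the log2 scale at an adjusted p up to 0.05 (edgeR quasi-likelihood, Benjamini-Hochberg), and 5 of them were among the untreated calls. Psd3 differed by 1.33 (log2 fold change 2.67 untreated and 1.33 under IL-17), Serpinb2 by 1.10 and Adamts4 by −1.08. The others, Tldc2 and Ctnna3, were listed at 0 in all untreated libraries of one siRNA and stood at no more than 0.255 CPM with the other. Cxcl1, a neutrophil chemokine singled out after its values were seen, did not differ between the siRNAs in untreated CFs past the threshold (6.42 ± 0.157 CPM with siR-2 and 6.28 ± 1.09 with siR-1, SD, n = 3, log2 fold change 0.03). Under IL-17 it was at 203, 192 and 197 CPM with siR-2 and 624, 607 and 651 with siR-1, a log2 fold change of −1.67, and the difference of 1.69 had an adjusted p of 8.38e-05 by edgeR quasi-likelihood, Benjamini-Hochberg.

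Against TGF-β, 782 of 21508 genes (3.64%) had a called difference, 493 of them among the 1307 untreated calls that could be tested (37.7%), and in all 493 the difference had the sign of the untreated change, on which these genes were chosen. Differences came from a joint fit of both tables and can deviate slightly from the subtraction of the separate values. Under TGF-β Idh1 was at 229, 242 and 239 CPM with siR-2 and 167, 168 and 166 with siR-1, a log2 fold change of 0.502 against 2.60 in untreated CFs (difference 2.11, standard error 0.0428). Fn1 was at 6165, 6187 and 6071 CPM with siR-2 and 7377, 7019 and 6906 with siR-1 there, a log2 fold change of −0.21 against −1.79 (difference −1.56, standard error 0.0569). Cd55 had −0.09 against 2.25, Gfpt2 −0.001 against 1.86, and Il6 0.13 against 1.44. For Dnajb9 (1.04 under TGF-β and 1.12 untreated) and Inhbb (−1.29 and −1.81) the difference was not called. As lists, mitosis and spindle genes had a median of −0.46 under TGF-β and −0.92 under IL-17, against −0.94 untreated, and contractile genes −0.35 and −0.35 against −0.58. Fibrillar collagens had 0.05 under TGF-β and −0.45 under IL-17 against −0.46. Differences between these medians were not tested.

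The 6 siRNA libraries were alike in depth, with 115485556 to 117624048 estimated counts each, and none was a copy of another. All 3 groups were fibroblasts by their markers, with Pdgfra, Ddr2, Col1a1, Col1a2, Dcn, Thy1, Tcf21 and Vim summing to 13346 to 13609 CPM with siR-2, 15191 to 15477 with siR-1 and 12732 to 13101 in Scrambled. Of the other cell types, leukocyte markers summed to 71.4 to 74.4 CPM with siR-2, 56.5 to 59.5 with siR-1 and 54.3 to 58.6 in Scrambled, endothelial markers to 35.4 to 36.5 CPM with siR-2, 36.8 to 40.1 with siR-1 and 40.7 to 45.9 in Scrambled and mesothelial markers to 47.2 to 48.98 CPM with siR-2, 63.6 to 65.1 with siR-1 and 60.7 to 64.3 in Scrambled. Erythroid markers gave 0 tested genes. Over the longer marker lists 1 gene was called, the mesothelial Lrrn4 at −1.09, with 0 of 6 cardiomyocyte, 0 of 12 endothelial, 0 of 13 leukocyte, 0 of 8 pericyte and 0 of 9 Schwann genes. Ribosomal protein and mitochondrial mRNA lists gave 0 calls among 31 and 13, and mitochondrial mRNAs took 2.27% to 2.33% of the counts with siR-2 and 2.30% to 2.40% with siR-1 (p = 0.4, two-sided exact permutation test, smallest possible p 0.1).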

How the data were processed

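Poly(A) RNA libraries of mouse CFs were sequenced by the authors, and per the labels' processing notes, which name tools without versions, cutadapt, HISAT2, StringTie and GRCm38 were used. The deposited values are estimated counts per gene derived from StringTie. Of 3873 genes seen in 1 untreated library only, 849 had the value 6, the commonest. A read pair was therefore taken as 6 counts, though not all values are multiples of 6. The strand setting and annotation release are not given in the sources used here, and GENCODE vM21 (GRCm38) gave symbols and coordinates. Columns named si1055 were taken as IAMP-siR-2 and si1259 as IAMP-siR-1 from the descriptions of the TGF-β libraries. Each untreated library held 114763924 to 119232309 estimated counts.

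Counts were fitted in R 4.3.3 with edgeR 4.0.16 (TMM, filterByExpr, robust quasi-likelihood fit of the 9 untreated libraries, limma 3.58.1), and genes were called as given above. Standard errors were computed as |log2 fold change| over √F. The IL-17 and TGF-β tables were fitted alike, and the difference between tables in 1 joint fit. Alternatives were DESeq2 1.42.0, RLE factors, counts divided by 6, no filter, at least 10 in every library, the 6 knockdown libraries alone, a fold threshold of 1.5, a replicate block and leaving out each library. Scripts were tested on simulated data.

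Genes were named by rule, as the 12 largest rises and 12 largest falls among called protein-coding genes of at least 5 CPM, the 10 largest differences in CPM, up to 3 called genes of each list, genes called oppositely against Scrambled, the target gene and genes the study discusses. Predicted genes and near-identical families were left out of the rankings, and Cxcl1 was added after its values were seen. Of the genes so named, 1 is not reported here. The members and lists were chosen with earlier results of these data known. Heart libraries of the series were not used here.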

Additional observations from a re-analysis of the deposited data

Results flagged for a closer look

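The results below stood out because the log2 fold change of siR-2 over siR-1 in untreated CFs differed from that in stimulated CFs by at least 1, at an adjusted p of at most 0.05 for the difference itself, by edgeR quasi-likelihood (Benjamini-Hochberg). Each value is the untreated log2 fold change minus the stimulated one, from 3 libraries in each of the 4 groups. Against IL-17 the difference was 1.33 for Psd3, 1.10 for Serpinb2, −1.08 for Adamts4 and 1.69 for Cxcl1, the last of which was not called in untreated CFs and was added after its values were seen.

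Against TGF-β the largest positive differences among the named genes were those of Psd3 2.81, Serpinb2 2.63, Ntng2 2.58, Alpl 2.505, Adgrd1 2.38, Cd55 2.35, Nr4a3 2.30, Bdh1 2.16 and Serpinb1a 2.13. They were followed by Idh1 2.11, Itgb6 2.11, Hpgd 2.06, Gsta2 2.03, Mvd 1.88, Gfpt2 1.88, Itgb8 1.85, Gsta4 1.81 and Ly6a 1.81. The smaller ones were Egr3 1.79, Ankrd37 1.70, Bcl3 1.604, Thbd 1.55, Itga2 1.49, Socs3 1.40, Il33 1.40, Tnfaip6 1.39 and Il6 1.33. The rest were Tnfsf15 1.31, Mmp15 1.20, Capza2 1.11 and Il11 1.01.

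The largest negative differences of named genes against TGF-β were those of Piezo2 −2.32, Adamts8 −2.17, Tmem47 −2.03, Meox1 −1.98, Prkar2b −1.88, Cd109 −1.81, Amot −1.78, Eif4e3 −1.68 and Nrk −1.64. Next were Sox12 −1.64, Tmem260 −1.63, Cemip −1.62, Gdf15 −1.59, Aoc3 −1.58, Fn1 −1.56, Chac1 −1.56, Nrp2 −1.54 and Tfpi2 −1.51. Below these in size were Mfap4 −1.497, Flvcr2 −1.43, Adamts12 −1.38, Itpripl2 −1.38, Npr3 −1.29, Gstt1 −1.21, Ltbp2 −1.20, Gbp7 −1.18 and Il1rap −1.13. Smaller still were Chp1 −1.12, Adcy1 −1.11, Pdgfrb −1.08, Col12a1 −1.06, Ephb3 −1.06, Fat1 −1.05, Tagln −1.03, Nuf2 −1.02 and Racgap1 −1.001. Of the TGF-β differences, the values behind those of Idh1, Fn1, Cd55, Gfpt2 and Il6 stand in the text above. A called difference can stand for a change that was lost, partly kept or reversed under TGF-β. For example, Psd3 had a log2 fold change of −0.12 under TGF-β, against 2.67 untreated. Aoc3 had −2.06 against −3.65, and Meox1 0.49 against −1.49.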

How the results depend on the processing

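Of the 121 named genes, 109 kept their direction and side of the threshold under every alternative in which they were tested. At a fold threshold of 1.5, 1126 genes were higher and 1995 lower in untreated CFs, 1208 and 1914 under IL-17, and 167 and 620 under TGF-β, and 4930523C07Rik passed it at −0.72. Leaving out 1 library at a time gave 386 to 443 genes higher and 819 to 912 lower, and −0.83 to −0.59 for 4930523C07Rik. DESeq2, the other normalization and the filters gave counts within 1.5 times the reported ones. Cxcl1, which was not called, changed sign to −0.10 without siR-1 replicate 2, in a range of −0.10 to 0.14 with 1 library left out. Of the 1308 calls, 78.7% to 99.1% were kept under each single alternative at the same fold threshold, and 758 (58%) under all of them. Calls of Acta2, Emp1, Chac1, Cdt1, Uhrf1, Lmod1, Mmp15, Wnt2b, Gbp2 and Gbp5 were lost under at least 1 alternative. Library totals were similar, so low level limits the smallest genes: where a group was at 18 estimated counts or fewer, its fitted fold is no bound.

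Libraries with the same replicate number did not deviate together between siR-2 and siR-1 (r = −0.15, 0.054 and −0.018 over 13062 genes), so the numbers were not taken as pairs. With the replicate block, 416 genes were higher and 852 lower, and 4930523C07Rik stood at −0.71.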
